A study of Homo sapiens with 9 samples.

Results

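RKO-only ZEB1 peaks are the narrow places where the transcription factor ZEB1 was called on the chromatin of RKO cells and in none of 3 lists from MiaPaCa2-derived cells. They were chosen by 2 criteria, a width under 1000 bp in the RKO list and no overlap of even 1 bp with a ZEB1 peak of unmodified MiaPaCa2 cells, of the MiaPaCa2 clone named WT or of the MiaPaCa2 clone named delta-Repeat. The rule found 4199 of the 7193 RKO peaks, that is 4199 of the 6917 RKO peaks under 1000 bp (60.7%). The other 2718 narrow RKO peaks overlapped a peak of at least 1 of those lists and are called shared peaks here. A further 276 RKO peaks were 1000 bp wide or wider.

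The data came from chromatin immunoprecipitation with sequencing, in which DNA bound to a protein is recovered with an antibody, read, and called as peaks. RKO is an established line from a colon carcinoma and MiaPaCa2 one from a pancreatic ductal adenocarcinoma, and both were untreated when profiled for ZEB1. The WT clone was grown by dilution from MiaPaCa2 cells that had received plasmids with a Cas9 nickase, an enzyme that cuts 1 DNA strand. The delta-Repeat clone was grown in the same way from cells that had also received guide RNAs aimed at the repeated stretch upstream of the MIR200A and MIR200B genes. Each of these lines is thus 1 clone. CTCF was profiled in untreated, unmodified MiaPaCa2 cells. Of 9 samples in the series as used here, 5 have a peak list, with 1 list per condition and therefore no replicate error. RKO, MiaPaCa2 and the pair of clones were each precipitated with another lot of the same ZEB1 antibody, so lot and cell line cannot be told apart. Expression was not measured in these samples, and no marker check of either line was made.

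ZEB1 is a zinc-finger repressor that binds E-box sequences and silences epithelial genes, among them cell adhesion genes and the microRNAs of the miR-200 family, which in turn target ZEB1 RNA. It is best known for driving the epithelial-to-mesenchymal transition, in which carcinoma cells lose contacts to their neighbours and become motile. CTCF, the comparison protein, is a zinc-finger factor that holds chromatin loops together and marks the borders between domains. Peaks are given by position in hg19, counted from 1, because no hg19 sequence or gene annotation was used here.

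Most RKO-only peaks were weak by the authors' fold enrichment, a linear ratio of signal at the summit over the caller's background. Their fold ran from 2.47 to 57.1 with a median of 5.51, and its quartiles were 4.77 and 6.58. Shared peaks had a median fold of 7.17 with quartiles of 5.68 and 9.91. The median width was 282 bp in RKO-only and 410 bp in shared peaks. Strength and width come from the same list as the rule and are a description only. Among the 100 strongest narrow RKO peaks 9 were RKO-only, and among the 1000 strongest 189 were. Split into 4 classes of equal size by fold, RKO-only peaks made up 78.2% of the weakest class and 30.0% of the strongest. A fold of 10 or more was reached by 132 RKO-only peaks (3.14%) and by 662 shared peaks (24.4%).

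**Figure D1:**
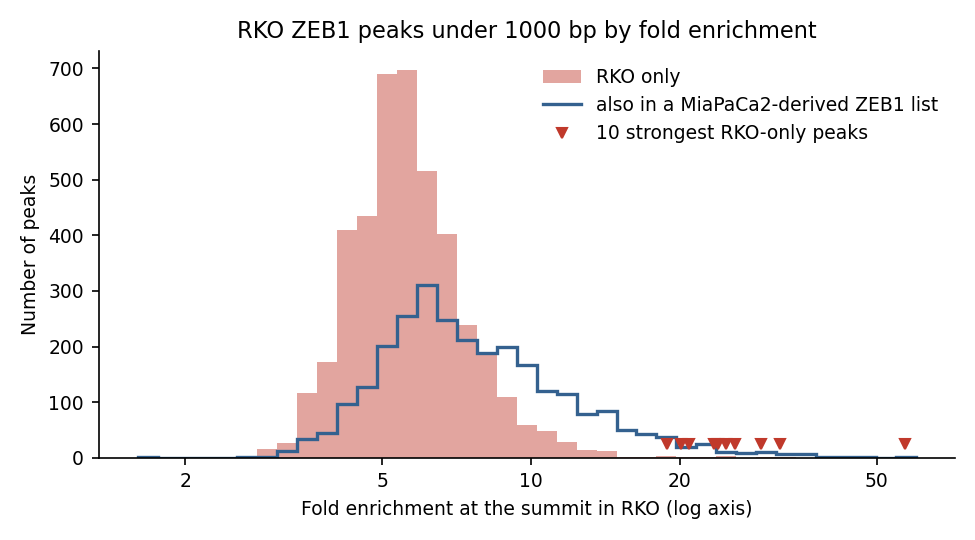
Number of RKO ZEB1 peaks under 1000 bp (vertical axis) by fold enrichment at the summit in RKO (horizontal log axis), for RKO-only peaks (filled) and peaks that also lie in a MiaPaCa2-derived ZEB1 list (line), with triangles at the 10 strongest RKO-only peaks, whose height carries no value. The RKO-only peaks centre at a median fold of 5.51 against 7.17, and the strongest stands apart at 57.1.

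A small group of strong peaks stood out from this weak majority. The strongest RKO-only peak lay on chromosome 9 from 16058168 to 16058821, with its summit at 16058408. Its fold was 57.1 and its −log10 q was 255, which ranked it 8 in the whole RKO list. The nearest ZEB1 peak of unmodified MiaPaCa2 cells was 1364 kb away, the nearest of the delta-Repeat clone 750 kb, and the nearest CTCF peak 74.9 kb. Another RKO peak lay only 3.90 kb from it, so this place was not isolated in RKO itself.

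Second in fold, at 31.8 and rank 56, was a peak of chromosome 1 that spanned 233759859 to 233760483. All 3 MiaPaCa2-derived lists had their nearest ZEB1 peak 297 kb from it, and the nearest CTCF peak was 106 kb off. The third, on chromosome 11, spanned 22850843 to 22851396 and reached a fold of 29.1 at rank 73. It stood 0.177 kb from another RKO peak, while the nearest MiaPaCa2 peak was 204 kb away and those of both clones 3712 kb.

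The 7 peaks that complete the strongest 10 had folds between 25.9 and 18.9 and ranks between 96 and 210. On chromosome 6 the peak from 42109905 to 42110762 (fold 25.9) lay 83.7 kb from a MiaPaCa2 peak. On chromosome 15 the peak from 41136170 to 41137086 (fold 24.8) lay 84.2 kb from a MiaPaCa2 peak and 28.7 kb from one of the delta-Repeat clone. Both had a second RKO peak within 0.3 kb.

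Chromosome 7 held a pair of them. The peak from 130125987 to 130126941 (fold 23.9) was the most solitary of the 10 within RKO, with no other RKO peak for 415 kb. The peak from 27208633 to 27209273 (fold 20.8) was 304 kb from the nearest peak of each MiaPaCa2-derived list.

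The remaining places were on chromosome 17 from 7338657 to 7339353 (fold 23.5), chromosome 3 from 124597136 to 124597707 (fold 20.1) and chromosome 12 from 51660902 to 51661352 (fold 18.9). The first had a CTCF peak 0.805 kb away, the closest CTCF site of the 10, and a MiaPaCa2 ZEB1 peak 83.8 kb away. The second was the nearest of the 10 to MiaPaCa2 binding, at 8.63 kb, and the third lay 28.5 kb from it. None of the 10 overlapped a CTCF peak (0 of 10) and none lay in the outer 5 Mb of a chromosome (0 of 10). For all RKO-only peaks these shares were 11.0% and 24.3%, and 10 peaks are too few to tell a difference. Among the 100 strongest RKO-only peaks, all with a fold of at least 10.5, 11 overlapped a CTCF peak, much as in the whole group. Of these 100, 40 were over 100 kb from any MiaPaCa2-derived ZEB1 peak and 2 were within 1 kb of one. Among all RKO-only peaks 62.8% had a gap of at most 100 kb and 11.1% of at most 1 kb.

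The peaks at the limits of the rule were not all of ordinary strength for RKO-only peaks, whose upper quartile of fold was 6.58. The widest RKO-only peak spanned 989 bp on chromosome 15 (41055889 to 41056877, fold 9.21), and the narrowest peak that the width limit kept out spanned 1003 bp on chromosome 16 (19421809 to 19422811, fold 6.84). At the overlap limit, an RKO-only peak on chromosome 11 (554817 to 555068, fold 6.78) touched a MiaPaCa2 peak with a gap of 0 bp. A peak on chromosome 20 (62677696 to 62678025, fold 6.57) counted as shared through an overlap of 2 bp.

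Some RKO-only peaks lay close beside ZEB1 peaks of the MiaPaCa2 cells, and most lay more than 10 kb from one. Overlap was excluded by the rule, and no expected gap was computed. The median gap to the nearest peak of the 3 other ZEB1 lists was 53.7 kb. A gap of at most 1 kb was found for 468 peaks (11.1%, 95% interval 10.2 to 12.1) and of at most 10 kb for 1098 (26.1%, 24.8 to 27.5). For 62.8% (61.3 to 64.3) the gap was at most 100 kb. Exact intervals here and below cover counting error only, and neighbouring peaks are not independent. The list of unmodified MiaPaCa2 cells accounted for 447 of the gaps up to 1 kb, while the shorter lists of the delta-Repeat and WT clones had such a peak beside 193 and 130 of them, and a peak can be near more than 1 list. Absence from a list is absence of a call. Read depth is unknown, so a weaker signal under the caller's threshold and no binding cannot be told apart.

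**Figure D2:**
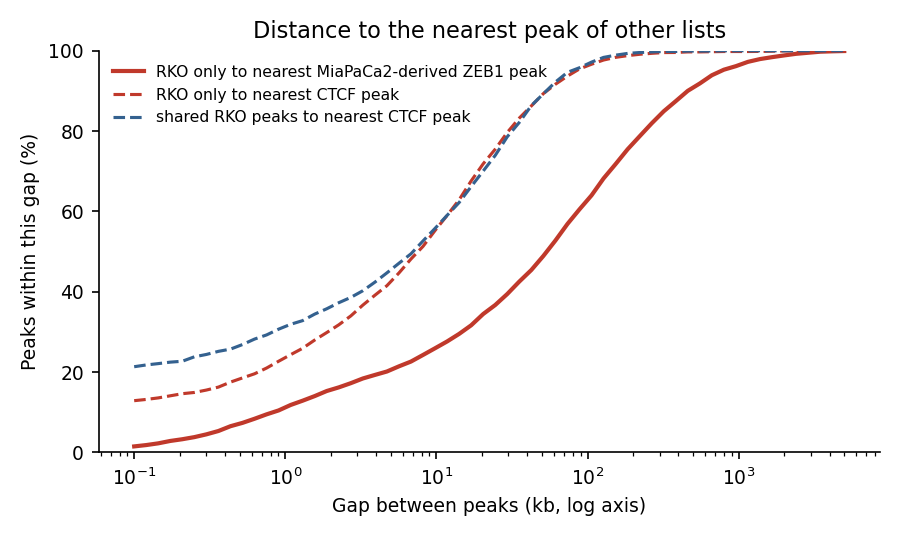
Percentage of peaks (vertical axis) with a gap to the nearest peak of another list no larger than the value on the horizontal axis (kb, log axis, labelled in powers of 10). The solid line shows RKO-only peaks against the MiaPaCa2-derived ZEB1 lists, with a median of 53.7 kb. The broken lines against the CTCF list part below 5 kb and run together beyond 10 kb.

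The rule did not use the CTCF list, but that list comes from MiaPaCa2, the cells in which RKO-only peaks lack a ZEB1 call. Shared peaks were chosen by a call in MiaPaCa2-derived cells, so the comparison of the groups is not independent of the rule. A smaller share of RKO-only than of shared peaks overlapped a CTCF peak, although similar shares of both lay within 10 kb of one. Of all narrow RKO peaks 14.4% overlapped a CTCF peak by at least 1 bp. This held for 462 of 4199 RKO-only peaks (11.0%, 95% interval 10.1 to 12.0) and for 536 of 2718 shared peaks (19.7%, 18.2 to 21.3), a difference of -8.72 percentage points (Newcombe 95% interval -10.5 to -6.96). With summits within 100 bp, a criterion free of peak width, the share was 2.91% (2.42 to 3.46) against 6.00% (5.13 to 6.96), beside 4.12% of all narrow RKO peaks, and the difference was -3.09 points (-4.16 to -2.09).

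The difference narrowed with distance. A CTCF peak lay within 5 kb of 42.6% (41.1 to 44.1) of RKO-only and 45.4% (43.6 to 47.3) of shared peaks, a difference of -2.86 points (-5.25 to -0.462). Within 10 kb the shares were 55.7% and 56.3%, and the difference of -0.551 points had an interval from -2.94 to 1.85 that includes 0. Within 50 kb they were 88.97% and 89.04%, with an interval of the difference from -1.55 to 1.47.

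The lower coincidence was also present within classes of ZEB1 fold and of width. These classes are coarse, and they do not remove the dependence of the groups on calls in MiaPaCa2-derived cells. In the strongest, from 7.65 to 57.1, a fold of 10 or more was reached by 132 of 519 RKO-only and 662 of 1210 shared peaks. In the 4 fold classes, from weakest to strongest, 11.5%, 9.97%, 10.8% and 12.7% of RKO-only peaks overlapped a CTCF peak, against 19.9%, 18.4%, 18.2% and 21.0% of shared peaks. The intervals of these differences all lay below 0, and so did those in the 4 width classes. With summits within 100 bp, the differences were again below 0 in all classes, but the interval included 0 in the second fold class (-1.53 points, -4.01 to 0.366) and the second width class (-1.31 points, -3.67 to 0.585). The odds ratio of RKO-only over shared peaks was 0.503 (95% interval 0.440 to 0.576) without classes. It was 0.541 (0.466 to 0.629) with peaks compared within fold and width classes together. RKO-only peaks had the lower share on 22 of 23 chromosomes. The exception was chromosome 6, where 26 of 154 RKO-only peaks (16.9%) and 24 of 149 shared peaks (16.1%) overlapped a CTCF peak.

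**Figure D3:**
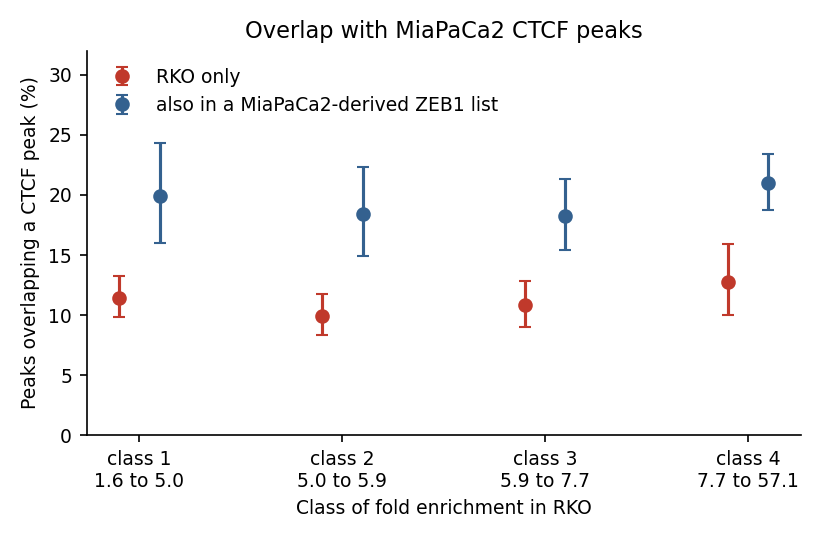
Percentage of RKO ZEB1 peaks under 1000 bp that overlap a CTCF peak of MiaPaCa2 cells (vertical axis) in 4 equal classes of RKO fold enrichment (horizontal axis, with the range of each class). Points are shares and bars exact 95% intervals. RKO-only peaks lie between 9.97% and 12.7%, below shared peaks at 18.2% to 21.0% in each class.

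The CTCF list is from MiaPaCa2 cells, and no CTCF list of RKO was analysed here, so a CTCF site held only in RKO would not be seen. Narrow MiaPaCa2 ZEB1 peaks absent from RKO overlapped these CTCF sites in 20.0% of cases (18.3 to 21.8), and the difference of RKO-only peaks from them was -9.04 points (-11.1 to -7.09). For narrow MiaPaCa2 ZEB1 peaks present in RKO the share was 20.1% (18.5 to 21.7). With summits within 100 bp, the shares of MiaPaCa2 peaks absent from and present in RKO were 7.19% and 6.98%. Among MiaPaCa2 peaks the CTCF share was thus similar with and without a call in RKO. At the median, a CTCF peak met by an RKO-only peak was about as strong as one met by a shared peak. The CTCF fold was at or above the median of its list at 280 of 462 RKO-only peaks (60.6%) and 313 of 536 shared peaks (58.4%). The median CTCF fold was 12.8 at 462 RKO-only peaks and 13.0 at 536 shared peaks, against 10.8 over the CTCF list, and the median distance between the summits was 173 and 166 bp.

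A small number of RKO-only summits sat on CTCF summits. In 66 peaks (1.57%) the summits were within 50 bp of each other, against 74 shared peaks (2.72%), a difference of -1.15 points (-1.91 to -0.458). The strongest of these, on chromosome 4, spanned 38858248 to 38859000, with a ZEB1 fold of 12.2 in RKO, a CTCF fold of 17.4 in MiaPaCa2 and 47 bp between the summits. The next, on chromosome 11 from 68611206 to 68611736, had a ZEB1 fold of 10.2 over a weak CTCF peak with a fold of 5.19. The other 3 of the strongest 5 lay on chromosome 22 (47134888 to 47135443), chromosome 9 (140196981 to 140197850) and chromosome 21 (33785055 to 33785800), with ZEB1 folds of 8.88, 8.63 and 8.09. All 5 carried CTCF in MiaPaCa2 cells without a ZEB1 call there, as the rule and the choice of these peaks required.

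RKO-only peaks were unevenly spread over the chromosomes. Their share of the narrow RKO peaks was 73.7% (68.6 to 78.3) on chromosome 8, 70.1% (65.4 to 74.4) on chromosome 11 and 69.5% (65.1 to 73.7) on chromosome 9. It was 42.2% (35.8 to 48.8) on chromosome 5, the lowest. The interval lay above the 60.7% of all chromosomes on 6 of them (8, 9, 11, 15, 16 and 19) and below it on 5 (2, 5, 6, 14 and 18). With a fold of 8 or more, where 26.3% of 1509 RKO peaks were RKO-only, the share was 47.7% of 44 on chromosome 15, 38.5% of 65 on chromosome 8, 14.5% of 55 on chromosome 5 and 14.5% of 76 on chromosome 2. Set against the CTCF list, chromosome 19 had 27.9 RKO-only peaks per 100 CTCF peaks, chromosome 9 had 24.9, chromosome 5 had 5.61 and chromosome X had 3.70, where the median chromosome had 11.6. Shared peaks numbered 183 beside 1399 CTCF peaks on chromosome 19 and 26 beside 972 on chromosome X, against 2718 beside 31754 in all. A high ratio on chromosome 19 and a low one on X are thus not particular to RKO-only peaks. The share itself is fixed by the rule and is a description, and the intervals treat peaks as independent although they gather.

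**Figure D4:**
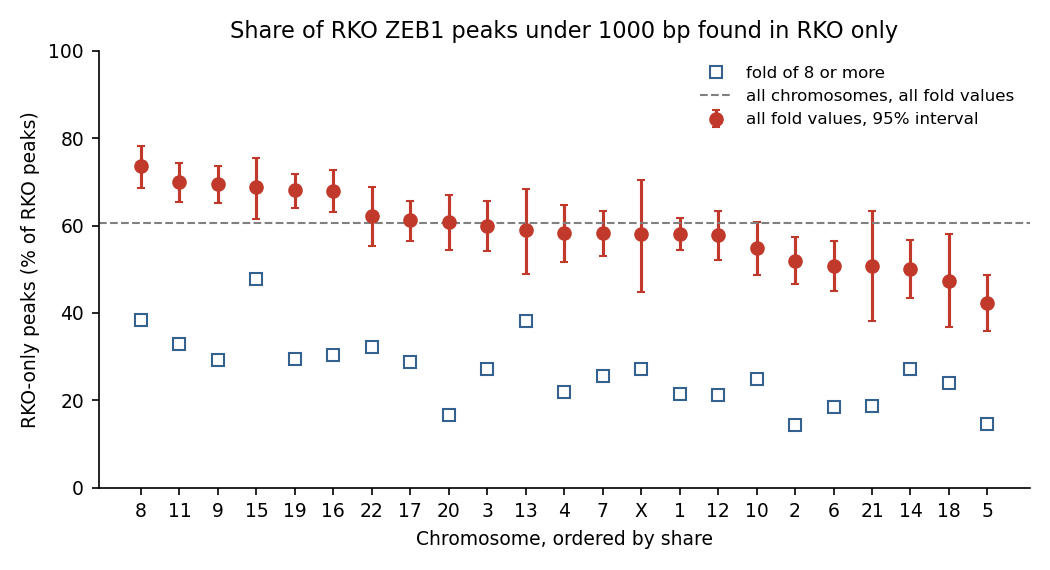
Share of RKO ZEB1 peaks under 1000 bp that are RKO-only (vertical axis, %) on each chromosome (horizontal axis, ordered by share). Filled points with bars are all peaks with exact 95% intervals, open squares are peaks with a fold of 8 or more, and the broken line is the 60.7% of all chromosomes. Chromosome 8 lies highest at 73.7% and chromosome 5 lowest at 42.2%.

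Many RKO-only peaks had another nearby, as shared peaks did. Another RKO-only summit lay within 10 kb of 1504 of them (35.8%, 34.4 to 37.3), and another shared summit within 10 kb of 25.3% (23.7 to 27.0) of the less numerous shared peaks, where 44.3% of narrow RKO peaks had another narrow RKO peak of either kind at that distance. Within 1 kb the shares were 15.2% (14.1 to 16.3) and 14.7% (13.4 to 16.1). A peak of RKO that another list also held lay within 10 kb of 878 (20.9%, 19.7 to 22.2). In windows of 1 Mb on a fixed grid, 70 windows with 10 or more RKO-only peaks held 1130 of them (26.9%), while 496 of the 1265 windows with any had exactly 1.

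The 3 densest windows lay near chromosome ends, and MiaPaCa2 cells also had ZEB1 peaks in them. On chromosome 9 the window from 139000001 to 140000000 held 49 RKO-only peaks among 70 RKO peaks, with 23 MiaPaCa2 ZEB1 and 57 CTCF peaks. On chromosome 8 the window from 145000001 to 146000000 held 47 among 61, with 17 MiaPaCa2 ZEB1 and 30 CTCF peaks. The first 1 Mb of chromosome 11 held 40 among 52, with 14 MiaPaCa2 ZEB1 and 32 CTCF peaks. The strongest RKO-only peak in these windows had a fold of 13.4, so they held many modest peaks and none of the strongest 10.

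Over the genome, the outer 5 Mb of chromosomes held 23.5% of narrow RKO peaks. They held 1022 RKO-only peaks (24.3%, 23.0 to 25.7) and 605 shared peaks (22.3%, 20.7 to 23.9), a difference of 2.08 points (0.0329 to 4.10) whose interval nearly reaches 0. For CTCF peaks of MiaPaCa2 the share was 10.7% (10.3 to 11.03). RKO-only peaks were thus, like the shared ones, found at chromosome ends more often than CTCF peaks.

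Some runs of RKO-only peaks filled whole intervals between ZEB1 peaks of the MiaPaCa2 cells. The interval with most lay on chromosome 16 from 792583 to 1429923, 0.637 Mb with 17 RKO peaks and 12 CTCF peaks. All 17 were under 1000 bp and hence RKO-only by the rule. An interval on chromosome 15 (90437647 to 91475024) held 13 RKO-only and 21 CTCF peaks, and one on chromosome 19 (50381666 to 51299010) held 12 and 30. These intervals lack MiaPaCa2-derived ZEB1 peaks by construction, but CTCF peaks of MiaPaCa2 cells were called in all of them. On the grid of 1 Mb, 244 windows had RKO-only peaks and no ZEB1 peak of the other lists, and they held 442 RKO-only peaks (10.5%).

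The interval with the second most, on chromosome 9 from 19231070 to 32526468, held 14 RKO-only and 24 CTCF peaks, but the CTCF peaks all lay outside a long stretch within it. No MiaPaCa2 CTCF peak and no ZEB1 peak of MiaPaCa2 or of either clone was called from 19926355 to 26326518, that is over 6.40 Mb. RKO had 9 ZEB1 peaks in this stretch, all under 1000 bp and hence RKO-only by the rule. The ZEB1 density of RKO was 1.41 peaks per Mb inside and 1.56 per Mb in the flanks, up to 8 Mb from its middle. CTCF had 0 peaks inside and 49 in the flanks, which is 5.10 per Mb. The ZEB1 lists of MiaPaCa2, the delta-Repeat clone and the WT clone had 2, 1 and 0 peaks in the flanks, so ZEB1 calls of those cells were sparse outside the stretch as well.

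The 9 peaks lay between 20620721 and 22238063 in the first part of the stretch, and none was called in its last 4.09 Mb. The strongest, at 21684706 to 21685095, reached a fold of 8.35 and rank 1567. It was followed by 20623128 to 20623615 (7.96) and 22237753 to 22238063 (7.04). The weakest, at 21801763 to 21801962, had a fold of 3.86. A further peak at 22008613 to 22008911 had a fold of 5.26. The 9 thus spanned the usual range of RKO-only peaks, around the median of 5.51.

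Among 269 stretches of at least 1 Mb without a CTCF peak, 21 held any RKO-only peak and this was the only one with 4 or more. Those next in number also lacked ZEB1 peaks of the MiaPaCa2-derived lists and held 3 RKO-only peaks each, on chromosome 13 (103568722 to 107173033 and 74409602 to 75793877) and chromosome 10 (1798046 to 2881338). The other 268, with 533 Mb in all, held 28 RKO-only and 55 RKO peaks, or 0.103 RKO peaks per Mb. The stretch of chromosome 9 was picked for holding the most RKO-only peaks, so a higher density there is in part fixed by that choice. Sequence in which no peak can be called was not taken out of these stretches. As background, MiaPaCa2 is known to have lost both copies of CDKN2A, a cell cycle inhibitor gene on the short arm of chromosome 9. Copy number was not measured here and genes were not placed on hg19, so whether that loss reaches this stretch was not tested. Without all RKO-only peaks of CTCF-free stretches, 11.1% of the rest overlapped a CTCF peak, against 11.0% with them.

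**Figure D5:**
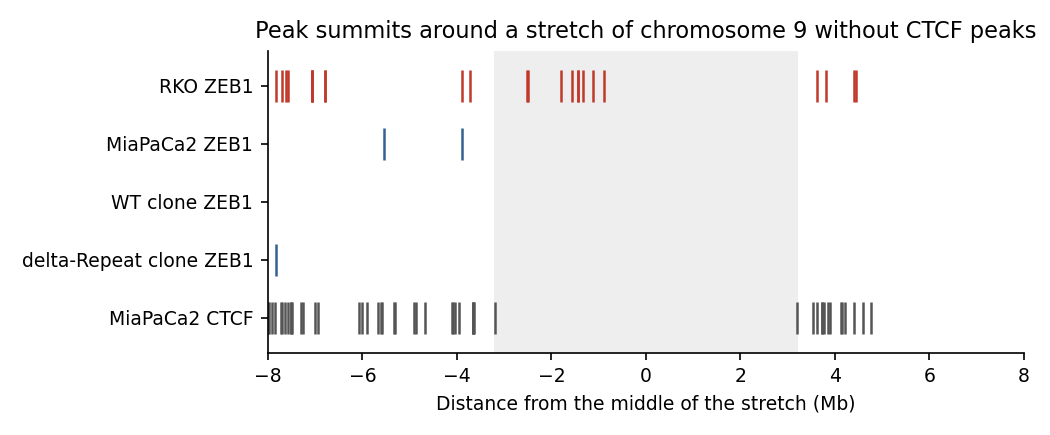
Summits of all peaks on chromosome 9 within 8 Mb of the middle of the stretch without CTCF peaks (horizontal axis, distance in Mb), with 1 row per list. The shaded band is the stretch of 6.40 Mb, in which RKO has 9 ZEB1 peaks and the lists of MiaPaCa2-derived cells have 0. At the right edge no list has a peak, RKO included.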

How the data were processed

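ZEB1 was profiled in RKO, unmodified MiaPaCa2 and both clones, and CTCF in MiaPaCa2. Tools listed in the submitters' processing notes are MACS2 2.1.0.20150731, SAMtools and Bowtie2 2.2.6, with hg19 (GRCh37) as the build. The input behind each list is not stated in the labels. The authors deposited for each peak a fold enrichment (a linear ratio), −log10 p and q values, a score of 10 times −log10 q, and start, end and summit. Folds were used only within a list. Depth is unknown.

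Overlaps were computed with Python 3.11.15, numpy 2.4.6, pandas 2.3.3 and scipy 1.17.1. On simulated lists 500 of 500 planted overlaps were found, and bedtools 2.31.1 gave the same 4199 peaks. Shares carry exact Clopper-Pearson 95% intervals and differences Newcombe intervals. No p-values were computed over peaks, which are not replicates. Fold and width classes are 4 equal parts of the 6917 narrow RKO peaks. Odds ratios over classes are Mantel-Haenszel. The length of a chromosome is the largest peak end, and unassembled short-arm ends of chromosomes 13, 14, 15, 21 and 22 were left out.

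Peaks were named by rule: the 10 strongest, the 5 strongest with a CTCF summit within 50 bp, those at the limits and the 3 densest windows. Chromosome shares, intervals without ZEB1 or CTCF and their peaks were chosen after their values were seen. Members and lists were chosen with earlier results of these data known. Motifs and gene positions were planned but not run, because no hg19 genome or annotation was used. Figures used matplotlib 3.10.9.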

Additional observations from a re-analysis of the deposited data

How the results depend on the processing

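The count of 4199 depended most on the threshold. It was 1003 with a fold of at least 5 and −log10 q of at least 10 (37.5% of 2674 such narrow peaks), 2291 with the RKO list cut to the length of the MiaPaCa2 list, and 397 with a fold of at least 8, a setting chosen after seeing the data. It lay between 3731 and 4893 in 5 other settings. The CTCF share was 2.91% with summits within 100 bp, 3.17% for 50% of both peaks, 9.19% with stricter CTCF peaks and 13.5% with stricter RKO peaks. The difference from shared peaks kept its direction in the 5 settings tried, at -3.09, -4.93 and -6.89 points in the first 3 of these. The share at chromosome ends was 15.2% for the outer 2 Mb (shared 12.9%) and 27.4% with stricter RKO peaks (shared 23.5%). The differences from shared peaks were 2.30 points (0.620 to 3.95) and 3.90 points (0.506 to 7.36). Another RKO-only peak lay within 5 kb of 29.7% and within 20 kb of 44.0%. Summit rules, 50% overlap, shorter distances and stricter CTCF peaks leave fewer matches by construction. Stricter RKO peaks lower the count by construction, but the CTCF share and the share at chromosome ends rose with them. For these rises and for the rest the cause was not tested. E-box and gene start settings were not run. No paired analysis was possible because each condition has 1 list.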

Other observations

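RKO peaks of 1000 bp or more that no other ZEB1 list overlapped numbered 49, with a median fold of 9.54. Of these, 4 overlapped a CTCF peak, where 11.0% of the RKO-only peaks under 1000 bp did. The strongest, on chromosome 8, spanned 1805888 to 1807110 and had a fold of 40.4. A peak of chromosome 1 followed at 27.2 (28286051 to 28287297). Chromosome 17 had one at 25.0 (79485026 to 79487105) and chromosome 19 one at 24.9 (15291371 to 15292566). The last 2 had a MiaPaCa2 ZEB1 peak 3.48 and 1.18 kb away, while the first 2 were 92.6 and 290 kb from one.

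A further 135 narrow RKO peaks were absent from unmodified MiaPaCa2 cells but overlapped a clone peak. Of these, 110 were in the delta-Repeat clone list alone, 19 in the WT clone list alone and 6 in both, where the lists hold 2160 and 1515 peaks. The median fold in RKO of the 135 peaks was 6.34 and the highest was 23.0.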
